A study of Mus musculus with 12 samples.

Results

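Small leucine-rich proteoglycans are secreted matrix proteins with a core of leucine-rich repeats, most of which carry chains of chondroitin, dermatan or keratan sulfate. They coat collagen fibrils and set how thick the fibrils grow, and several also bind growth factors of the TGF-beta and BMP families. Tendon, cartilage and bone are rich in them, and loss of single members in mice gives weak tendons, thin bones or fibrils of uneven width. The genes followed here were *Bgn*, *Dcn* and *Aspn* (class I), *Fmod*, *Lum*, *Prelp*, *Omd* and *Kera* (class II), *Ogn* (class III) and *Podn* (class V). They were taken from a list of gene symbols, but that list was chosen with earlier results of these data known. All 10 are among the 47643 genes in the count files.

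The genes were measured in 12 RNA libraries of C3H/10T1/2, a mouse line of embryonic fibroblast-like cells that BMP2 can turn towards cartilage, bone or fat. All 4 groups received 0.5 µg of plasmid per square cm through a polymer reagent, and RNA was taken 3 days later, with 3 libraries per group. The reference plasmid, pH_BMP2ADV, encodes bone morphogenetic protein 2 (BMP2), and the hybrid plasmids pH_BMP2ADV20a, pH_BMP2ADV148b and pH_BMP2ADV590 are named after a miRNA (miR-20a, miR-148b or miR-590) added to it. BMP2 plasmid was thus present in every group, and no group without BMP2 was analysed here. The transfection was transient and non-viral in 1 cell line, which the labels also tag as sarcoma, and the share of cells that took up plasmid is not given. The comparisons ask whether adding a miRNA altered the expression of these matrix genes. None of the 4 groups is named as carrying a control insert. An effect of the miRNA therefore cannot be told apart from an effect of any insert against BMP2ADV.

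The libraries held 9236431 to 14727288 gene counts. Levels are counts-per-million (CPM) on library sizes scaled by TMM, and groups are given as mean ± SD of 3 libraries. QuantSeq reads cover the 3' ends of transcripts, so the CPM was not divided by gene length, and orders between genes hold on that scale only. Changes are log2 fold changes of the first group against the second from an edgeR quasi-likelihood fit to all 12 libraries, and "called" means a Benjamini-Hochberg adjusted p under 0.05 over the 13229 genes tested. Of the 10 genes, 9 passed the filter on low counts and *Kera* did not. BMP2ADV590 replicate 2 stood apart from the other libraries of its group on the principal component that held 11.7% of the variance (-23.4 against 22.6 and 9.63). The called proteoglycan genes and the counts per list are therefore also given without it, an alternative chosen for the lists after seeing the data.

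With miR-590 on the plasmid, 5 of the 9 tested proteoglycan genes rose against BMP2ADV and none fell. The genes were *Fmod*, *Prelp*, *Aspn*, *Lum* and *Bgn*, at 1.21-fold to 1.85-fold. The count fell to 2 without BMP2ADV replicate 2 (*Fmod* and *Aspn*) or without BMP2ADV replicate 3 (*Fmod* and *Prelp*), and to 3 without BMP2ADV590 replicate 3. It was 5 without BMP2ADV590 replicate 2, with *Omd* in place of *Bgn*. Over all tested genes 4.37% were called as higher in that comparison. The median log2 fold change of the 9 genes was 0.38, against 0.00 (0.00196) over all tested genes. In BMP2ADV20a only *Fmod* was called, as higher, against 0.0983% of all genes (DESeq2 also called *Aspn* and *Prelp*). In BMP2ADV148b edgeR called none as higher, against 0.212% of all genes, and none as lower. There 1 of the 9 genes had an unadjusted p under 0.05, as did 8.43% of all genes, and DESeq2 and limma-voom called none either. With all groups tested at once, *Fmod*, *Prelp*, *Lum* and *Aspn* differed, while 6.25% of all tested genes did.

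**Figure D1:**
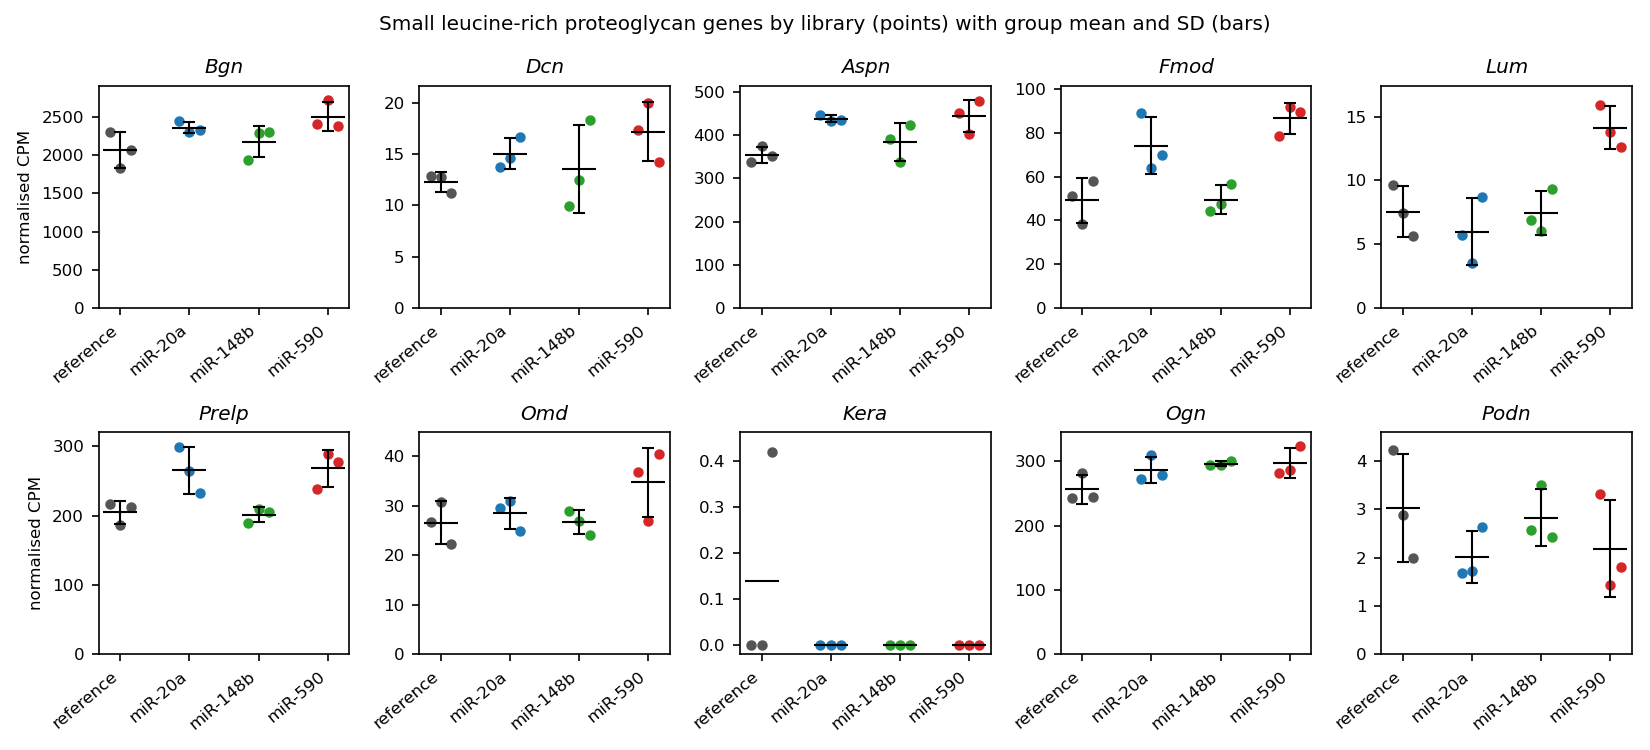
Normalised CPM of the 10 genes in every library (points), with the group mean and SD (bars; no SD is drawn for Kera), for the reference plasmid BMP2ADV and the miR-20a, miR-148b and miR-590 hybrid plasmids. The 3 miR-590 libraries lie above the 3 reference libraries for Bgn, Dcn, Aspn, Fmod, Lum, Prelp and, barely, Ogn, whereas Omd and Podn overlap.

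*Fmod* (ENSMUSG00000041559, GRCm38 chromosome 1, 134037254 to 134048277, plus strand) had the smallest adjusted p of the family. It encodes fibromodulin, a keratan sulfate proteoglycan that binds collagen fibrils and guides their cross-linking. Its level was 51.2, 38.1 and 58.1 CPM in the BMP2ADV libraries and 78.4, 91.9 and 89.4 in the BMP2ADV590 libraries. The BMP2ADV20a libraries held 88.9, 63.8 and 69.7 CPM and the BMP2ADV148b libraries 44.1, 47.5 and 56.7. All miR-590 and miR-20a libraries thus lay above all reference and miR-148b libraries. Against BMP2ADV, the log2 fold change was 0.82 in BMP2ADV590 (SE 0.137, 95% interval 0.53 to 1.10, adjusted p = 0.000394). It was 0.60 in BMP2ADV20a (SE 0.137, adjusted p = 0.0476) and 0.01 in BMP2ADV148b (95% interval -0.28 to 0.30, adjusted p = 0.991). BMP2ADV590 was also higher than BMP2ADV148b (0.81, adjusted p = 0.000719), while BMP2ADV590 and BMP2ADV20a overlapped (0.22, 95% interval -0.06 to 0.50, adjusted p = 0.48). The difference between BMP2ADV148b and BMP2ADV20a (-0.59) just missed the threshold (adjusted p = 0.0507), although the libraries did not overlap.

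The rise of *Fmod* in BMP2ADV590 was called whichever of the 12 libraries was left out, with adjusted p up to 0.00579, and at 0.000791 without BMP2ADV590 replicate 2. The call in BMP2ADV20a was less firm. It was lost without BMP2ADV replicate 1 or 2, any 1 of the BMP2ADV20a libraries, BMP2ADV148b replicate 1 or 2, or BMP2ADV590 replicate 3, with log2 fold changes from 0.45 to 0.73 and adjusted p up to 0.318.

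*Prelp* (ENSMUSG00000041577, chromosome 1, 133910304 to 133921414, minus strand) lies next to *Fmod* in the genome. Its protein, a class II member with a basic end rich in proline and arginine, links the matrix to heparan sulfate. The reference libraries held 217, 186 and 212 CPM, the miR-590 libraries 239, 288 and 277, the miR-20a libraries 299, 264 and 233, and the miR-148b libraries 189.5, 210.01 and 204.8. The miR-590 and miR-20a libraries were above every library of the other groups, the same split as for *Fmod*. The log2 fold change against BMP2ADV was 0.39 in BMP2ADV590 (SE 0.0941, adjusted p = 0.011), 0.37 in the miR-20a group (SE 0.094, adjusted p = 0.0913) and -0.03 in the miR-148b group (95% interval -0.22 to 0.17). BMP2ADV590 exceeded BMP2ADV148b by 0.41 (adjusted p = 0.00994), a call lost without BMP2ADV148b replicate 1 or BMP2ADV590 replicate 3 (up to 0.0932). The call in BMP2ADV590 against BMP2ADV was lost without BMP2ADV replicate 2 (0.0847) and held without BMP2ADV590 replicate 2 (0.0374). BMP2ADV148b was lower than BMP2ADV20a by -0.40 with an adjusted p of 0.0537.

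The promoters of *Fmod* and *Prelp*, from 250 bases before to 50 after the RefSeq start (GRCm38.p6), are shown because these neighbouring genes were high in the same groups. Capitals mark the SOX core ACAAT, or ATTGT on the other strand, and the SMAD core CAGAC, or GTCTG. SOX9 is the main regulator of cartilage genes, and SMAD proteins carry the BMP signal. The sequences read in the direction of transcription.
Fmod promoter, chr1:134037004-134037303, plus strand: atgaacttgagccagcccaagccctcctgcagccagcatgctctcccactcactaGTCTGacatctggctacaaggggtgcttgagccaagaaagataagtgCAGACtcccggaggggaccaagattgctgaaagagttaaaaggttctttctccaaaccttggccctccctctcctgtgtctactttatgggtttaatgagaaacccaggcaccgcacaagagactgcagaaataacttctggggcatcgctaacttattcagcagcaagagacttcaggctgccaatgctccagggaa
Prelp promoter, chr1:133921352-133921651, minus strand: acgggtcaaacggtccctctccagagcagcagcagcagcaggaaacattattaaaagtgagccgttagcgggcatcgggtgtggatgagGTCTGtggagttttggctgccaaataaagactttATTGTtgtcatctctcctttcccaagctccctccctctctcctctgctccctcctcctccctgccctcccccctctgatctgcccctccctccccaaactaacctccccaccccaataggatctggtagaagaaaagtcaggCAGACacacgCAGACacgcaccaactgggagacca

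The *Fmod* window held 2 SMAD cores and 0 SOX cores, and the *Prelp* window 3 SMAD cores and 1 SOX core. Among all 32851 RefSeq promoters of that length, 49.6% had a SMAD core and 31.0% a SOX core, so both are common, and a match is a description, not a binding site. The table had promoters for 8 of the 10 genes. The SMAD core was absent from the promoters of *Bgn*, *Aspn*, *Ogn*, *Omd* and *Kera*, and occurred once in 1 of the 2 promoters of *Podn*. The SOX core was also in those of *Aspn*, *Omd* and *Ogn* (1 each) and *Kera* (2), and in neither that of *Bgn* nor those of *Podn*. The GC-rich SMAD element GGCGCC, present in 11.9% of promoters, was found in 1 of the 2 promoters of *Podn* (3 times) and in no other member, and TATAA, present in 24.9%, in *Aspn* and *Ogn* (2 each).

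*Lum* (ENSMUSG00000036446, chromosome 10, 97565128 to 97572703, plus strand) encodes lumican, a keratan sulfate proteoglycan best known for keeping collagen fibrils of the cornea thin and regular. It was scarce, with 130, 80 and 54 reads in the BMP2ADV libraries and 226, 154 and 126 in the BMP2ADV590 libraries. This came to 9.61, 7.42 and 5.65 CPM in the reference, 5.74, 3.52 and 8.71 with miR-20a, 6.86, 6.05 and 9.36 with miR-148b, and 16.0, 13.8 and 12.6 with miR-590. Each miR-590 library was thus higher than any of the other 9. *Lum* had the largest log2 fold change against BMP2ADV among the 9 tested genes in BMP2ADV590, at 0.89 (SE 0.256, 95% interval 0.36 to 1.42, adjusted p = 0.0305). It was the 1 member called between BMP2ADV590 and BMP2ADV20a (1.26, SE 0.26, adjusted p = 0.00975), where 1.29% of all genes were called as higher. It was also higher in BMP2ADV590 than in BMP2ADV148b (0.93, adjusted p = 0.0397). In BMP2ADV20a against BMP2ADV its value was -0.37 (95% interval -0.92 to 0.19, adjusted p = 0.686), so unlike *Fmod* and *Prelp* it was not raised on average with miR-20a.

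The calls of *Lum* rested on few reads. The call against BMP2ADV was lost without BMP2ADV replicate 2 or 3 or BMP2ADV590 replicate 1 (up to 0.164), and that against BMP2ADV148b without 5 of the libraries (BMP2ADV replicate 2, BMP2ADV148b replicate 1 or 2, BMP2ADV590 replicate 1 or 3; up to 0.185). The call against BMP2ADV20a was lost without BMP2ADV20a replicate 1 or 2 (up to 0.0804). Without BMP2ADV590 replicate 2 the value against BMP2ADV was 0.91 (adjusted p = 0.0423).

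*Aspn* (ENSMUSG00000021388, chromosome 13, 49544443 to 49567565, plus strand) encodes asporin, a class I member with a run of aspartates that binds collagen, TGF-beta and BMP2. It stood at 337, 374 and 352 CPM in the reference, 448, 433 and 434 with miR-20a, 392, 337 and 423 with miR-148b and 451, 404 and 478 with miR-590. The miR-20a and miR-590 libraries were above all reference libraries, and the miR-148b libraries overlapped the reference. The log2 fold change was 0.33 in BMP2ADV590 (SE 0.0845, adjusted p = 0.0163). It was 0.31 in the miR-20a group (95% interval 0.13 to 0.48, adjusted p = 0.13) and 0.12 in the miR-148b group (95% interval -0.06 to 0.29). BMP2ADV590 and BMP2ADV20a differed by 0.02 (95% interval -0.15 to 0.19). The call in BMP2ADV590 was lost without BMP2ADV replicate 1 or 3 or BMP2ADV590 replicate 3 (up to 0.103) and held without BMP2ADV590 replicate 2 (0.00442). Its difference among all 4 groups (adjusted p = 0.0341) did not hold when any 1 of 9 libraries was dropped (all but BMP2ADV148b replicates 2 and 3 and BMP2ADV590 replicate 2; up to 0.121).

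*Bgn* (ENSMUSG00000031375, chromosome X, 73483602 to 73495933, plus strand) was by far the most abundant member. It encodes biglycan, which carries chondroitin or dermatan sulfate, binds BMPs and is needed for normal bone mass in mice. With a mean of 2279 CPM over the 12 libraries it ranked as number 30 among the tested genes, and it held 65.8% to 71.9% of the family's CPM in a library. The reference libraries were at 2301, 1831 and 2075 CPM and the miR-590 libraries at 2416, 2726 and 2380.5. The miR-20a libraries (2447, 2307 and 2330.05) also lay above the reference, narrowly, and the miR-148b libraries (1945, 2287 and 2302) overlapped it. The log2 fold change in BMP2ADV590 was small, 0.28 (SE 0.0844, 95% interval 0.10 to 0.45, adjusted p = 0.042). That call was lost without 8 of the 12 libraries (BMP2ADV replicate 2 or 3, any 1 of the BMP2ADV20a libraries, BMP2ADV148b replicate 2, BMP2ADV590 replicate 2 or 3; adjusted p up to 0.248), at 0.21 and 0.138 without BMP2ADV590 replicate 2. It was also lost with only the 2 groups in the fit (0.11). Among all groups *Bgn* was not called (adjusted p = 0.137).

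**Figure D2:**
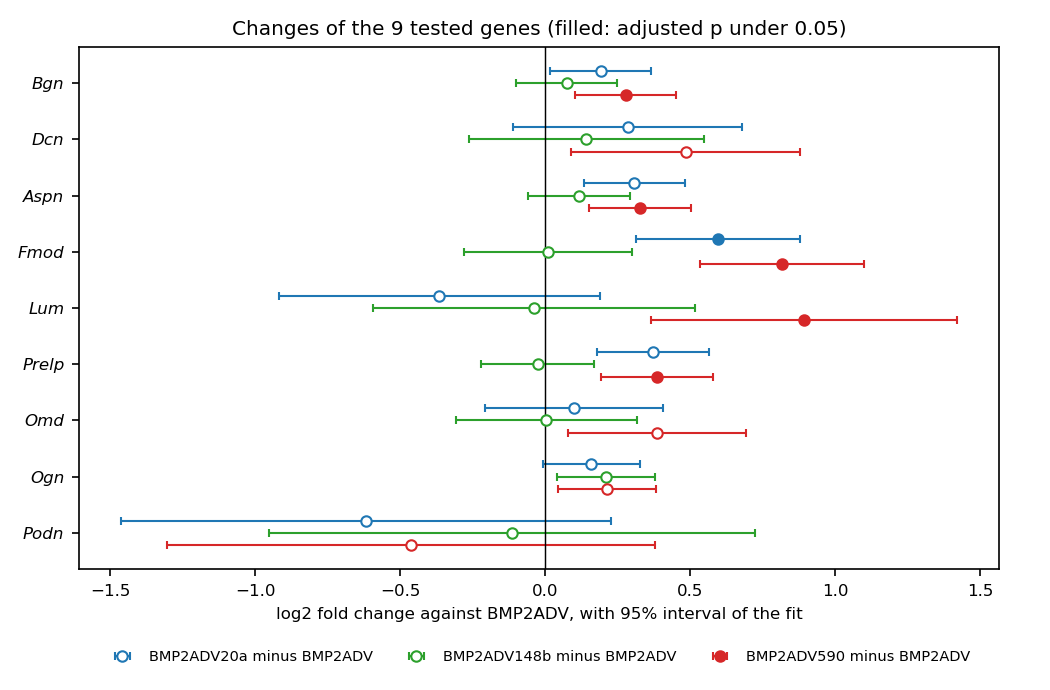
Log2 fold change of the 9 tested genes in each hybrid group against BMP2ADV, with the 95% interval of the fit; filled points have an adjusted p under 0.05. The filled points are 5 in BMP2ADV590 (Bgn, Aspn, Fmod, Lum, Prelp), 1 in BMP2ADV20a (Fmod) and none in BMP2ADV148b, and the 3 comparisons share the BMP2ADV libraries.

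*Dcn* (ENSMUSG00000019929, chromosome 10, 97479609 to 97518143, plus strand) encodes decorin, the class I relative of biglycan that binds collagen and TGF-beta and dominates in skin and tendon. In these cells it was low, at 12.9, 12.8 and 11.2 CPM in the reference against 17.4, 19.98 and 14.2 with miR-590. Its mean over the 12 libraries was 14.5 CPM, against the 2279 CPM of *Bgn*. The log2 fold change of 0.48 in BMP2ADV590 did not pass the test (SE 0.191, adjusted p = 0.13), although the libraries did not overlap. The values in BMP2ADV20a and BMP2ADV148b were 0.28 and 0.14 (adjusted p = 0.66 and 0.895). The miR-148b libraries varied most, at 9.93, 12.5 and 18.3 CPM.

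*Omd* (ENSMUSG00000048368, chromosome 13, 49582462 to 49592822) encodes osteomodulin, a keratan sulfate proteoglycan of bone that binds hydroxyapatite. It held 26.6, 30.8 and 22.2 CPM in the reference and 36.8, 27.0 and 40.3 with miR-590, so the groups overlapped through BMP2ADV590 replicate 2. The log2 fold change was 0.38 (SE 0.148, adjusted p = 0.119). Without that replicate *Omd* was called (0.54, adjusted p = 0.0191), which with the loss of *Bgn* left the count at 5. The miR-20a and miR-148b groups stood at 28.4 ± 3.12 and 26.6 ± 2.41 CPM and overlapped the reference, and their log2 fold changes were 0.10 and 0.00 (0.00356).

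*Ogn* (ENSMUSG00000021390, chromosome 13, 49608046 to 49624501), the gene of osteoglycin or mimecan, a small class III protein of bone and vessel matrix, was the third most abundant of the 10 genes, after *Bgn* and *Aspn*. It stood at 256 ± 22.3 CPM in the reference, 286 ± 19.9 with miR-20a, 296 ± 3.88 with miR-148b and 297 ± 23.0 with miR-590. The reference libraries held 243, 282 and 244 CPM, so that 2 of them lay below every library of the hybrid groups. The miR-590 libraries held 282.27, 285.7 and 323.8 CPM, so the lowest was barely above the highest reference library (282.14). The log2 fold changes were 0.16, 0.21 and 0.21 in that order, with adjusted p of 0.534, 0.465 and 0.118. *Ogn* was the 1 member whose miR-148b libraries did not overlap the reference, in a comparison where 7.36% of all genes were higher without overlap.

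*Podn* (ENSMUSG00000028600, chromosome 4, 108014791 to 108096445) encodes podocan, which slows the growth and migration of smooth muscle cells. It had 16 to 57 reads in a library and a mean of 2.51 CPM over the 12 libraries. Its log2 fold change was below 0 in each hybrid group, at -0.62, -0.11 and -0.46 for miR-20a, miR-148b and miR-590, with intervals that included 0 and adjusted p of 0.651, 0.964 and 0.575. These intervals are wide. *Kera* (ENSMUSG00000019932, chromosome 10, 97606879 to 97613692), the gene of keratocan in cornea and tendon, had 4 reads in BMP2ADV replicate 3 and 0 in the other 11 libraries. A count of 0 allows up to 0.204 to 0.325 CPM in a library, by counting error only.

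Counted by whether the libraries overlap, 7 of the 9 tested genes (*Ogn* barely) were higher in all BMP2ADV590 than in all BMP2ADV libraries, against 12.5% of all tested genes. Without BMP2ADV590 replicate 2 the count was also 7, with *Omd* in and *Ogn* out, against 17.9% of all genes. With all libraries the count was 5 for BMP2ADV20a (7.76% of all genes) and 1 for BMP2ADV148b (7.36%). Between hybrid groups, 1 gene (*Lum*) was higher in BMP2ADV590 than in BMP2ADV20a without overlap (9.80% of all genes). In BMP2ADV590 against BMP2ADV148b there were 4 (*Bgn*, *Lum*, *Fmod* and *Prelp*; 10.4%), of which *Fmod*, *Prelp* and *Lum* were called (2.46% of all genes were called as higher). In BMP2ADV148b against BMP2ADV20a, 4 were lower without overlap (*Bgn*, *Fmod*, *Aspn* and *Prelp*; 6.58%), and edgeR called 0, against 0.0529% of all genes as lower. In that last comparison 3 members had an unadjusted p under 0.05 (7.79% of all genes did), DESeq2 called *Fmod* and *Prelp*, and limma-voom called 0. The CPM of the 10 genes summed to 2984 ± 219 with the reference plasmid, 3477 ± 112 with miR-20a, 3159.6 ± 221 with miR-148b and 3672 ± 166 with miR-590, most of it *Bgn*.

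**Figure D3:**
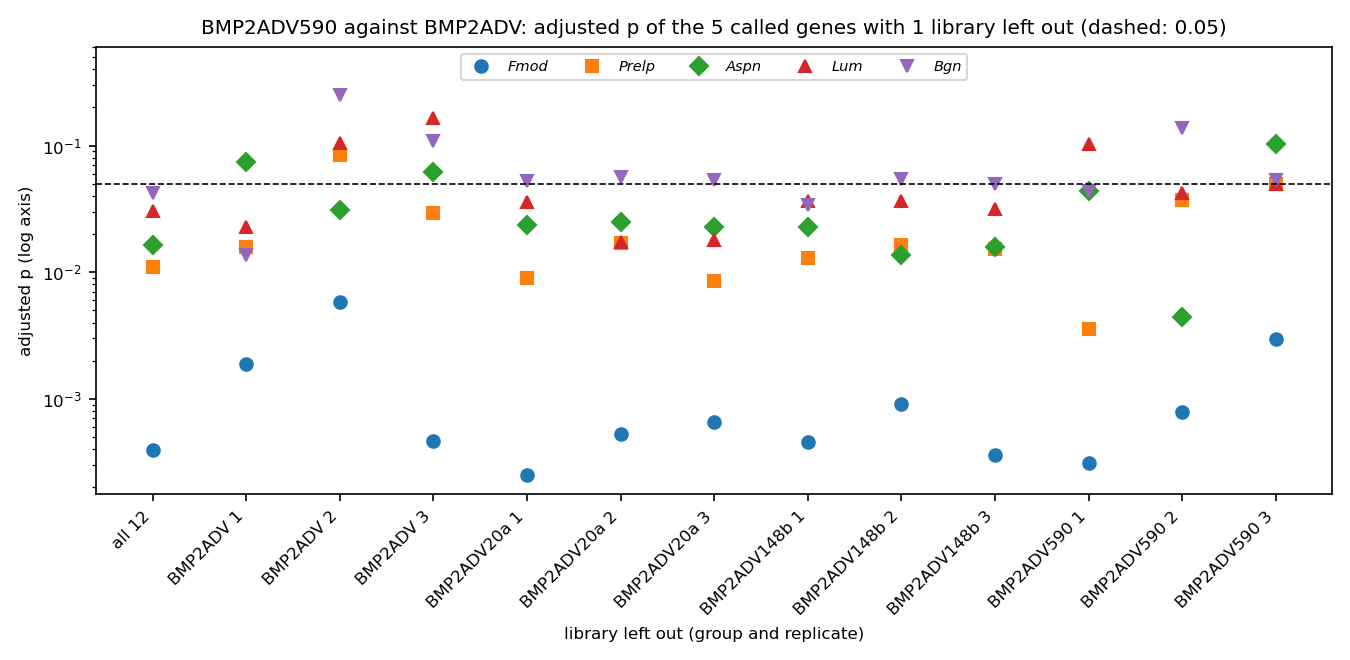
Adjusted p (log axis) of the 5 genes called in BMP2ADV590 against BMP2ADV, with all 12 libraries and with each library left out in turn; the dashed line is 0.05. Fmod stays below the line throughout, whereas Prelp crosses it once, Aspn and Lum 3 times each and Bgn 8 times.

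Most of these genes lie in clusters with their relatives. On chromosome 10 *Dcn*, *Lum*, *Kera* and *Epyc* follow each other within 202.8 kb, on chromosome 13 *Ecm2*, *Aspn*, *Omd* and *Ogn* within 119.7 kb, and on chromosome 1 *Optc*, *Prelp* and *Fmod* within 151.1 kb. No other protein-coding gene lies wholly within these spans. *Cenpp* covers *Aspn*, *Omd* and *Ogn* from the opposite strand. It had 2038 reads over the 12 libraries, fewer than any single library held of *Aspn* or *Ogn*, whereas *Omd* had 3994 over the 12. *Scp2* overlaps the annotated span of *Podn* on the same strand and had 4017 reads, against 344 of *Podn*. The effect of these overlaps on the counts was not tested. On chromosome 10 the neighbours were at very different levels, from 0 reads of *Kera* in 11 libraries to 14.5 CPM for *Dcn*. *Epyc*, which encodes epiphycan of growth plate cartilage, held 4.44, 3.61 and 3.87 CPM in the reference and 7.62, 7.89 and 8.81 with miR-590. Its log2 fold change was 1.02 (SE 0.402), the adjusted p 0.129, and the groups did not overlap. The adjusted p of *Epyc* was 0.0169 with only the 2 groups in the fit. It was 0.158 without BMP2ADV590 replicate 2 and 0.133 with the replicate number as a block. *Ecm2*, a matrix gene with leucine-rich repeats beside *Aspn*, held 6.88, 6.49 and 5.34 CPM in the reference and 11.6, 10.6 and 8.61 with miR-590 (0.72, SE 0.251, adjusted p = 0.0832). *Optc*, the opticin gene, had 0 to 12 reads in a library and was not tested. The 5 tested cluster genes on chromosomes 10 and 13 other than *Lum* and *Aspn* were above 0 in log2 fold change, and none of those was called.

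**Figure D4:**
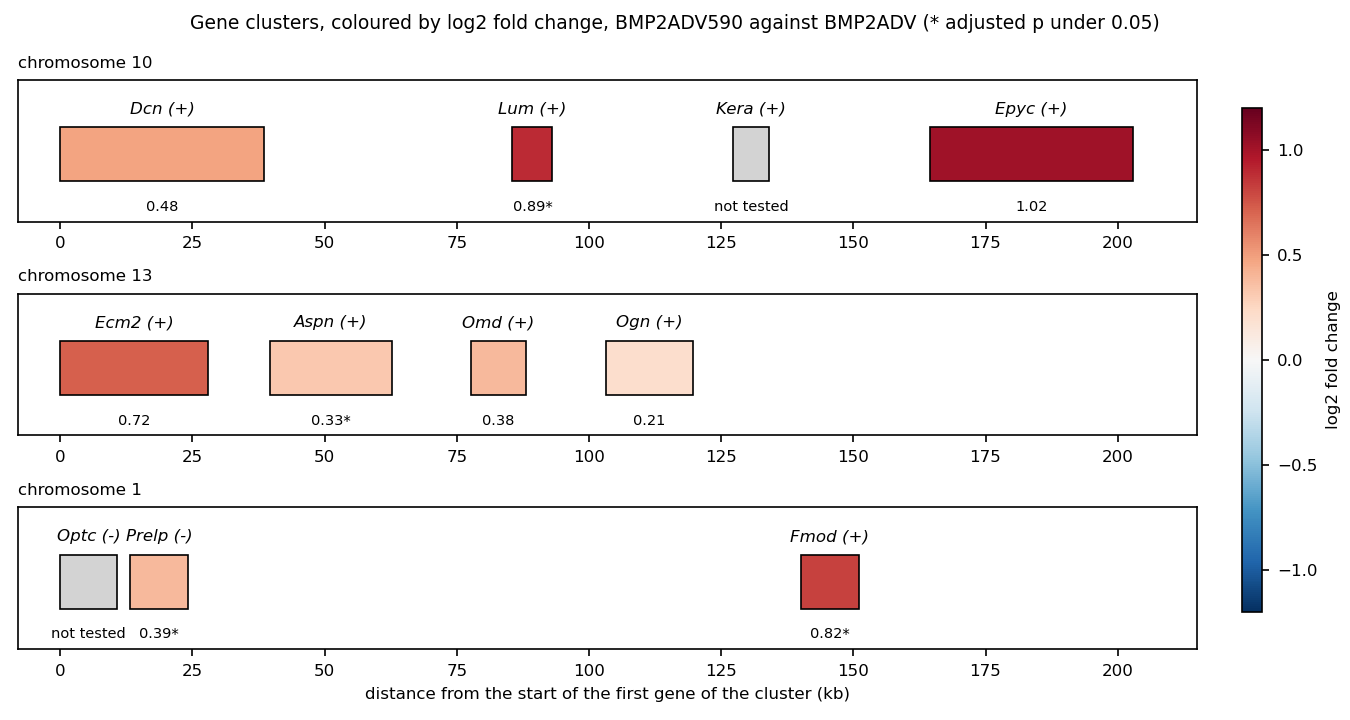
The gene clusters on chromosomes 10, 13 and 1, drawn to scale from the start of the first gene in kb, with strand, and coloured by log2 fold change of BMP2ADV590 against BMP2ADV (printed under each gene; a star marks an adjusted p under 0.05). Lum, Aspn, Prelp and Fmod carry stars, every tested gene is above 0, and Kera and Optc were not tested.

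Besides these, the members can be set against the miRNAs on the plasmids. A miRNA pairs with messenger RNAs mainly through its seed (bases 2 to 8, in capitals), and the mature RefSeq sequences are shown so that the sites can be read against them. miR-590-5p belongs to the seed family of miR-21, and mouse miR-21a-5p stands in for it here. Which miR-590 arm the construct makes is not stated in the labels.
mmu-miR-20a-5p: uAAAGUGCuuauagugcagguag
mmu-miR-148b-3p: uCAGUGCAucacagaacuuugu
mmu-miR-21a-5p: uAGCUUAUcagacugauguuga

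The matching sites, on the strand of the transcript, were looked for in every gene's longest 3' UTR in GENCODE M21. Among the 11583 tested genes with such a UTR, the miR-20a site GCACTTT was in 15.1%. The miR-148b site TGCACTG was in 15.8%, and the site of the miR-21 seed, ATAAGCT, in 8.19%. Of the 10 members, 1 had a site for miR-20a (*Podn*), 0 for miR-148b, and 2 for the miR-21 and miR-590-5p seed (*Omd* and *Aspn*). The UTRs of *Fmod* (1652 bases), *Prelp* (2302), *Lum* (652), *Bgn* (1137), *Dcn* (488) and *Ogn* (1518) held none of the 3 sites. Sites of the other arm of miR-590 were not looked for. The sites are printed with the bases around them, in DNA letters and with the site in capitals.
Omd, bases 139 to 145 of the UTR: ggctttacttcATAAGCTtagagcttact
Aspn, bases 644 to 650 of the UTR: tgatcagttatATAAGCTttgaagaacac
Podn, bases 696 to 702 of the UTR: gcaggtcacagGCACTTTcagagaacagc

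*Podn*, with the miR-20a site, went from 3.03 ± 1.12 to 2.01 ± 0.534 CPM in BMP2ADV20a and did not pass the test. *Aspn*, with the miR-21 and miR-590-5p site, rose in BMP2ADV590, and the value of *Omd* there was 0.38. A site is a match of letters only, and no site says nothing of other modes of pairing.

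The genes that build, bind and cut these proteoglycans were also counted in BMP2ADV590 against BMP2ADV. Over all tested genes, 4.37% were called as higher there and 3.89% as lower. Of 21 tested genes for the sugar linker and for chondroitin or dermatan sulfate, 2 rose and 1 fell (median log2 fold change 0.14). *Chst11*, which encodes the main chondroitin 4-sulfotransferase, went from 108 ± 9.61 to 187 ± 12.3 CPM (0.78, SE 0.111, adjusted p = 7.34e-05). *Csgalnact1*, which starts chondroitin chains, went from 35.6 ± 2.62 to 55.6 ± 4.71 CPM (0.64, adjusted p = 0.00152). *Pxylp1*, a phosphatase that acts on the xylose of the linker, fell (17.9 ± 0.655 against 11.7 ± 0.673 CPM, log2 fold change -0.61, adjusted p = 0.0403). It missed the threshold when any 1 library of either group was left out (up to 0.124). Of 7 tested genes for keratan sulfate and tyrosine sulfation, edgeR, DESeq2 and limma-voom called 0. Of these, 3 had an unadjusted p under 0.05, as did 21.2% of all genes. All 7 values were below 0, and the median was -0.12. The 3 are named after their values were seen. *B3gnt2*, which extends poly-N-acetyllactosamine chains, had the smallest p but was at most 1.33 CPM in the reference and 0.269 in BMP2ADV590 (-2.24, adjusted p = 0.0683). *Chst1*, a keratan sulfate sulfotransferase, stood at 7.62 ± 0.592 and 4.87 ± 0.341 CPM (-0.64, adjusted p = 0.108), and the tyrosine sulfotransferase gene *Tpst2* was at -0.24.

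Of 12 collagen genes whose proteins the proteoglycans bind, 4 rose and none fell (median 0.22), beside 4.37% of all genes called as higher. The collagen VI genes *Col6a2* and *Col6a1*, whose microfibrils bind biglycan and decorin, went from 424 ± 23.3 to 762 ± 112 CPM (0.85, adjusted p = 1.56e-05) and from 508 ± 57.0 to 868 ± 142 CPM (0.77, adjusted p = 0.000129). The cartilage collagens *Col2a1* (0.61) and *Col11a1* (0.39) rose too. *Col1a1* and *Col1a2*, the genes of collagen I, to whose fibrils fibromodulin and lumican bind in tendon, were at -0.18 and -0.03 (adjusted p = 0.276 and 0.91). Of 7 tested cross-linking genes 3 rose and none fell (median 0.19), namely the lysyl hydroxylases *Plod1* (0.48) and *Plod2* (0.48) and lysyl oxidase *Lox* (0.26), from 2385 ± 162 to 2853 ± 151 CPM. Leaving out BMP2ADV replicate 2 or 3, or BMP2ADV590 replicate 2, took *Lox* past the threshold (up to 0.159), as did a fit of only the 2 groups (0.0926).

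Of 7 tested genes for proteases, 2 rose and 1 fell (median 0.17), beside 4.37% and 3.89% of all genes. The gelatinase gene *Mmp2* rose by 0.51 (334 ± 12.2 to 476 ± 68.5 CPM, adjusted p = 0.000682) and *Mmp14*, which activates it, by 0.27 (adjusted p = 0.0246). The call of *Mmp14* was lost without BMP2ADV replicate 1 or 3 or BMP2ADV590 replicate 3 (up to 0.155), or with only the 2 groups in the fit (0.077). *Adamts5*, which encodes an aggrecan-cutting protease, fell from 347 ± 10.8 to 217 ± 47.8 CPM (-0.68, adjusted p = 0.000997). Of 11 tested receptors and growth factors that bind the proteoglycans, *Lrp6*, a Wnt co-receptor, rose (0.50, adjusted p = 0.0163) and *P2rx7*, a receptor through which biglycan signals, fell (-0.84, adjusted p = 0.024), with a median of -0.04. *Lrp6* was no longer called without BMP2ADV replicate 3 or BMP2ADV590 replicate 1 (up to 0.163) and *P2rx7* without any 1 of the BMP2ADV libraries or BMP2ADV590 replicate 1 or 2 (up to 0.0876). Some of these genes moved the same way in BMP2ADV20a against BMP2ADV, without overlap but not called by edgeR. They were *P2rx7* (-0.90, adjusted p = 0.0965), *Adamts5* (-0.35, 0.311), *Mmp2* (0.33, 0.125) and *Mmp14* (0.18, 0.405), whereas *Lrp6* was at -0.02 and overlapped. In all, 15 of these genes were called in BMP2ADV590, and 14 without its replicate 2. Without that library 6 collagen genes were called in place of 4, *Col6a2* was at 0.72 and *Col6a1* at 0.63, *Pxylp1*, *Lox* and *P2rx7* were not called, and all 6 chondrocyte markers were. Of 5 other tested genes of the family edgeR and limma-voom called 0 and DESeq2 1. The unadjusted p was under 0.05 for 3 of them, against 21.2% of all genes. Their median was 0.72, and the list went both ways. *Epyc*, *Chadl* (0.90) and *Ecm2* were above 0, and *Podnl1*, the podocan-like gene, had the smallest p and was lower without overlap (5.10, 4.17 and 5.97 against 2.82, 1.88 and 2.90 CPM; -0.99, adjusted p = 0.076). *Tsku* was at -0.33, *Podnl1*, *Tsku* and *Chadl* being named after their values were seen, and *Chad* had 0 reads in all libraries. In BMP2ADV20a and BMP2ADV148b edgeR called 0 of the 70 tested genes of these lists, where 17 and 7 had an unadjusted p under 0.05. Over all genes 9.87% and 8.43% did, so 7 of 70 is close to the share of all genes. DESeq2 called 2 and 0, and limma-voom 0 in each.

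**Figure D5:**
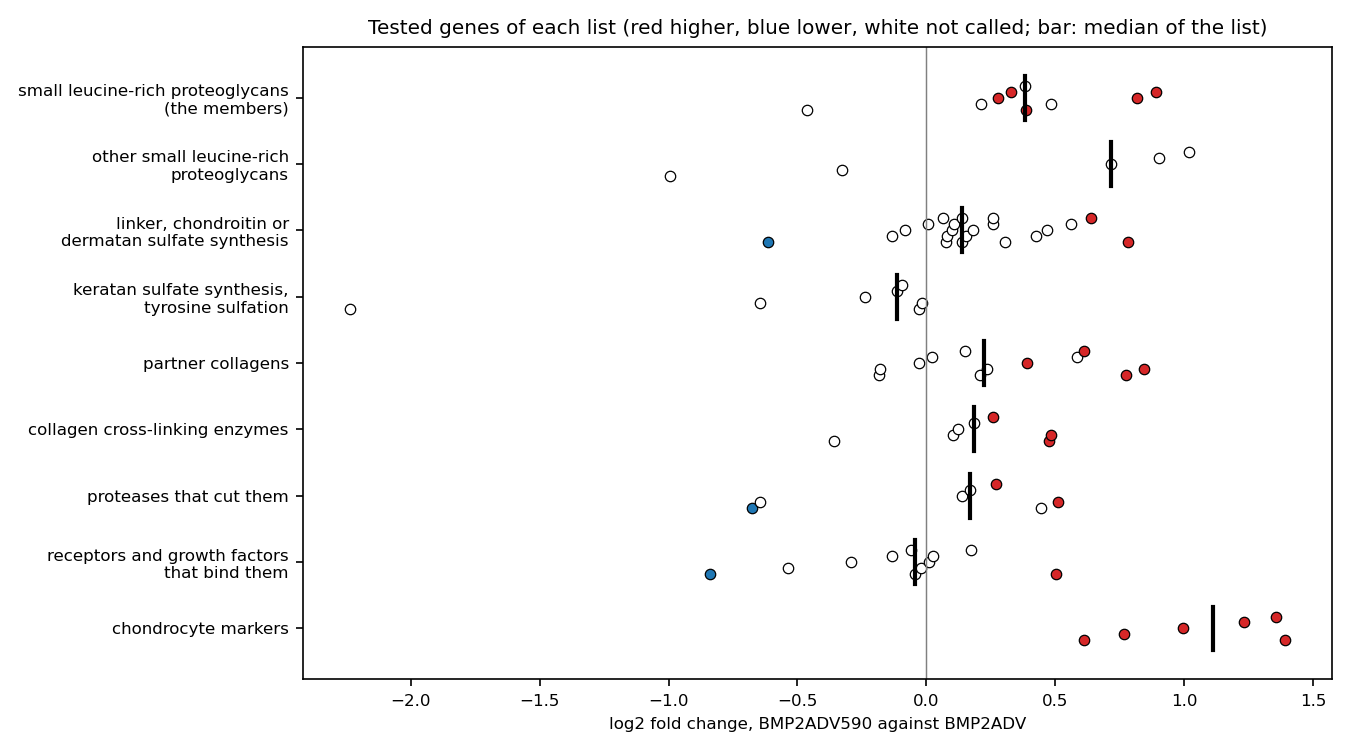
Log2 fold change of every tested gene in the lists of proteoglycans, of their partners and of chondrocyte markers, BMP2ADV590 against BMP2ADV (red, called as higher; blue, called as lower; white, not called; bar, median of the list). Over the lists drawn, which leave out the markers of cell types other than chondrocytes, the medians run from -0.12 for keratan sulfate synthesis to 0.72 for the other small leucine-rich proteoglycans and 1.11 for the chondrocyte markers, all 6 of which are red.

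Markers of cell types were measured beside these genes. In BMP2ADV590 against BMP2ADV, 4.37% of all tested genes were called as higher and 3.89% as lower. All 10 fibroblast or mesenchymal markers were present, with a summed level of 19351 to 22647 CPM in a library and 1 of 10 (*Vim*) called as higher in BMP2ADV590 (0.29, adjusted p = 0.00988), a call lost with only the 2 groups in the fit (0.0677). Of the chondrocyte markers, all 6 tested of 9 listed rose in BMP2ADV590. Those with the smallest p were *Col10a1*, *Hapln1*, *Sox9* and *Col2a1* (adjusted p = 7.32e-06, 7.96e-06, 2.87e-05 and 4.26e-05). The summed level of the chondrocyte list was 2896 to 3630 CPM in the reference and 5238 to 5884 in BMP2ADV590. In BMP2ADV590 against BMP2ADV20a the same 6 were also called as higher (median 1.04), whereas 1 of the 9 proteoglycan genes was (median 0.16), and so was the adipocyte marker *Fabp4* (1.17, adjusted p = 0.0368). Over all tested genes 1.29% were called as higher in that comparison. Against BMP2ADV148b the counts were 6 of 6 and 3 of 9, and 2.46% of all genes were called as higher. The summed level was 3657 to 4084 in BMP2ADV20a and 3006 to 4136 in BMP2ADV148b. *Matn1* was at 0 in the reference and in BMP2ADV590, where *Comp* and *Matn3* stayed under 1 CPM on average. Of 4 tested osteoblast markers edgeR, DESeq2 and limma-voom called 0 (2 at an unadjusted p under 0.05, against 21.2% of all genes). The osteoblast list summed to 77.9 to 86.1 CPM in the reference and 76.8 to 79.6 in BMP2ADV590. Of 3 tested tendon markers 1 fell (*Scx*, 8.55 ± 1.40 against 4.19 ± 1.22 CPM, adjusted p = 0.0091), not called without BMP2ADV replicate 3 or BMP2ADV590 replicate 1 (up to 0.0612), and *Kera* is in that list as well as in the family. The most abundant tendon marker, *Tnmd*, went the other way without passing the test (67.2 ± 4.59 to 78.3 ± 5.79 CPM, 0.22, adjusted p = 0.16), and *Mkx* was at -0.22. *Tnmd* and *Mkx* were named after their values were seen. In BMP2ADV148b *Scx* was also lower than in the reference without overlap (3.94 ± 0.364 CPM, log2 fold change -1.11). For that comparison edgeR and limma-voom called 0 tendon markers and DESeq2 called 1. In BMP2ADV20a *Scx* overlapped the reference (7.74 ± 0.637 CPM). The part of a shift in cell type in these changes was not tested, and in bulk RNA more cells of a type cannot be told apart from more RNA per cell. Summed markers of macrophages, endothelium, epithelium, skeletal muscle and adipocytes reached at most 3.50, 12.2, 3.50, 1.13 and 14.8 CPM, and *Adgre1*, *Cdh5*, *Krt8*, *Ckm* and *Plin1* were at 0 in the reference and in BMP2ADV590.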

How the data were processed

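RNA of 12 libraries in 4 groups was read with QuantSeq 3' mRNA FWD (100 ng of RNA, 16 PCR cycles, per the labels' protocols). The authors deposited raw counts per Ensembl gene; the submitters' processing notes name FastQC 0.11.5, STAR 2.5.2a, HTSeq 0.6.0 and GRCm38. No label states the counting mode, strand setting or annotation release. Lines without a gene (52.2% to 54.4% of records) were left out, and 47224 of 47643 genes matched a GENCODE M21 symbol. One model with a mean per group was fitted with edgeR 4.0.16 (R 4.3.3, TMM, filterByExpr, quasi-likelihood F-test). It was also run on counts simulated from its own fitted means and spreads, which cannot test whether the real libraries keep to the model. SEs are the log2 fold change divided by the root of F. Alternatives used DESeq2 1.42.0, limma 3.58.1 and other settings.

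The members and gene lists were chosen with earlier results of these data known. All members are named, and up to 4 called genes per list, by smallest p. The labels do not say whether replicates are separate cultures, so p-values measure the spread between these libraries, which may be technical. No 2 replicates were alike within sampling noise (chi-square per gene at least 6.41). Amplified reads carry no molecular tags, so floors cover counting error only.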

Additional observations from a re-analysis of the deposited data

How the results depend on the processing

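Leaving out each library in turn, the members called ranged from 0 to 2 in BMP2ADV20a (main count 1), from 0 to 0 in BMP2ADV148b and from 2 to 5 in BMP2ADV590 (5), each against BMP2ADV. They ranged from 0 to 1 in BMP2ADV590 against BMP2ADV20a (1), from 1 to 4 against BMP2ADV148b (3), from 0 to 2 in BMP2ADV148b against BMP2ADV20a (0) and from 2 to 5 over all groups (4). In BMP2ADV590 against BMP2ADV the count was 2 without BMP2ADV replicate 2 or 3 and 3 without BMP2ADV590 replicate 3. Called genes of the partner lists, whose alternatives were chosen after seeing the data, ranged from 0 to 1, 0 to 1 and 10 to 17 (main 0, 0 and 15). In BMP2ADV20a, no filter on low counts, DESeq2 and a fit of only the 2 groups each gave 3 members, with 4, 2 and 4 partner genes, and no filter gave 2 partner genes in BMP2ADV148b. DESeq2, its size factors in edgeR, no filter and a fit of only 2 groups each gave 2 members in BMP2ADV148b against BMP2ADV20a. The cause was not tested. Replicate numbers did not pair the libraries (18 same-numbered pairs, correlation -0.113 to 0.0715); with them as a block, 0 members were called in BMP2ADV20a, 4 in BMP2ADV590 (without *Bgn*, 0.0782) and 3 over all groups, and *Lox* (0.0559) and *Pxylp1* (0.0601) lost their calls.

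Uncalled values near 0 changed sign when libraries were left out. In BMP2ADV148b against BMP2ADV the log2 fold changes ran from -0.24 to 0.18 for *Lum*, -0.0912 to 0.0171 for *Prelp*, -0.33 to 0.21 for *Podn*, -0.00607 to 0.16 for *Bgn*, -0.14 to 0.15 for *Fmod*, -0.10 to 0.12 for *Omd* and -0.13 to 0.32 for *Dcn*. In BMP2ADV590 against BMP2ADV20a they ran from -0.0717 to 0.10 for *Prelp*, -0.31 to 0.38 for *Podn*, -0.0150 to 0.11 for *Ogn* and -0.0393 to 0.0840 for *Aspn*. *Omd* ran from -0.00567 to 0.22 in BMP2ADV20a against BMP2ADV, *Dcn* from -0.42 to 0.0372 in BMP2ADV148b against BMP2ADV20a, and *Ogn* from -0.0641 to 0.0345 in BMP2ADV590 against BMP2ADV148b (-0.000169 with limma-voom). *Kera*, *Podn* and *Lum* had the fewest reads of the 10 genes.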
